A study of Mus musculus with 6 samples.

Results

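Genes of the p53 pathway were followed in 3 mouse embryonic stem cell lines that the sources used here tell apart by name alone, ZM-1, ♂M-1 and ♂M-3. The group holds 37 listed genes, chosen as regulators or well-known targets of the p53 protein, with earlier results of these data known. A gene was measured here where a probe set of the array carried its symbol and no other, and 33 of the 37 met that rule, out of 19938 genes measured in all. Each of the 33 had a single such probe set. Trp53 itself, Cdkn1a, Bax and Gdf15 were not analysed here.

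The labels describe all 3 lines as chromosome transfer embryonic stem cells and do not spell out the prefixes ♂M and ZM. Each line was profiled in 2 biological repeats on a whole-transcript gene array, giving 6 arrays, and the design asked how the expression profiles of the lines compare. All cultures were grown on gelatin with LIF and a pair of kinase inhibitors, PD0325901 against MEK and CHIR99021 against GSK3β. The sources used here do not give the strain, genotype or passage of the lines, each group is a single line, and no untreated or damaged culture is part of the series. Values are linear intensities, and where the pair of arrays of a line is given, repeat 1 comes before repeat 2. The median intensity of an array lay between 67.2 and 71.3 and the lower quartile between 23.8 and 25.1. Of 12 markers of pluripotent cells, all 12 lay above the median in every array, with Pou5f1 between 3561 and 3878. Arrays carry no counting depth, so their number limits the precision. RNA from fewer expressing cells and less RNA per cell cannot be told apart in such bulk samples.

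p53 is a transcription factor that is held at low activity by the ubiquitin ligase Mdm2 and its partner Mdm4. DNA damage or other stress releases it, and it then switches on genes for cell cycle arrest, apoptosis, DNA repair and its own inhibition. Embryonic stem cells divide quickly with a short G1 phase and are known to respond to damage through p53 by apoptosis and by loss of pluripotency genes.

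More p53 pathway genes were lower than higher in ♂M-3 against ZM-1, the comparison that also had the most calls among all genes. In ♂M-3 against ZM-1, 12 of the 33 genes were lower and 3 higher, where 7.20% of all 19938 genes were lower and 8.66% higher. Here and below, a gene was called where limma's test gave a Benjamini-Hochberg adjusted p below 0.05 over all genes. The median log2 difference of the 33 genes was −0.17, against 0.00 over all genes. ♂M-1 against ZM-1 gave 2 higher and 1 lower, with 1.89% of all genes higher and 2.53% lower, and medians of 0.02 and −0.01. Between the ♂M lines, 9 genes were higher in ♂M-1 than ♂M-3 and 2 lower, with 3.22% and 3.32% of all genes and medians of 0.22 and −0.02. The comparisons share arrays: those 2 that involve ♂M-3 use the same ♂M-3 arrays, so their counts are not independent. The shares over all genes include weakly expressed genes and are not matched for level. By mean intensity, Fas lay at percentile 26.5 of all genes, Trp73 at 49.4 and the rest of the 33 at 52.3 or higher.

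These counts rested on few arrays. The 12 lower genes in ♂M-3 against ZM-1 became 7 without ♂M-3 replicate 1 and 7 without ♂M-3 replicate 2, while the 3 higher genes, Plk3, Eda2r and Pltp, passed whichever array was left out. Of the 9 genes higher in ♂M-1 than ♂M-3, Plk2, Pmaip1, Perp and Phlda3 passed whichever array was left out. The others each failed without at least 1 of the ♂M arrays. Ei24, which is not among the 9, had a log2 difference of 0.75 without ♂M-1 replicate 2, against 0.49 with all arrays. Plk3 and Aen, the 2 lower genes of that comparison, also each failed without at least 1 of the ♂M arrays. Aen, the 1 gene lower in ♂M-1 than ZM-1, did not pass when any of the 6 arrays was left out. Since the repeats are the only replication, p-values set a difference against the spread between repeats. That spread was pooled over the 3 lines and drawn by limma towards a value shared by all genes.

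Without a test, both ♂M-3 arrays lay below all 4 arrays of the other lines for 17 of the 33 genes, against 13.5% of all genes, and above them for 4 genes, against 18.3%. Both ZM-1 arrays lay above the 4 ♂M arrays for 7 genes and below for 3, against 15.3% and 15.7%. Both ♂M-1 arrays lay above the other 4 for 6 genes and below for 1, against 7.12% and 9.53%. The 17 genes lowest in ♂M-3 came from every role that had more than 1 measured gene.

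**Figure D1:**
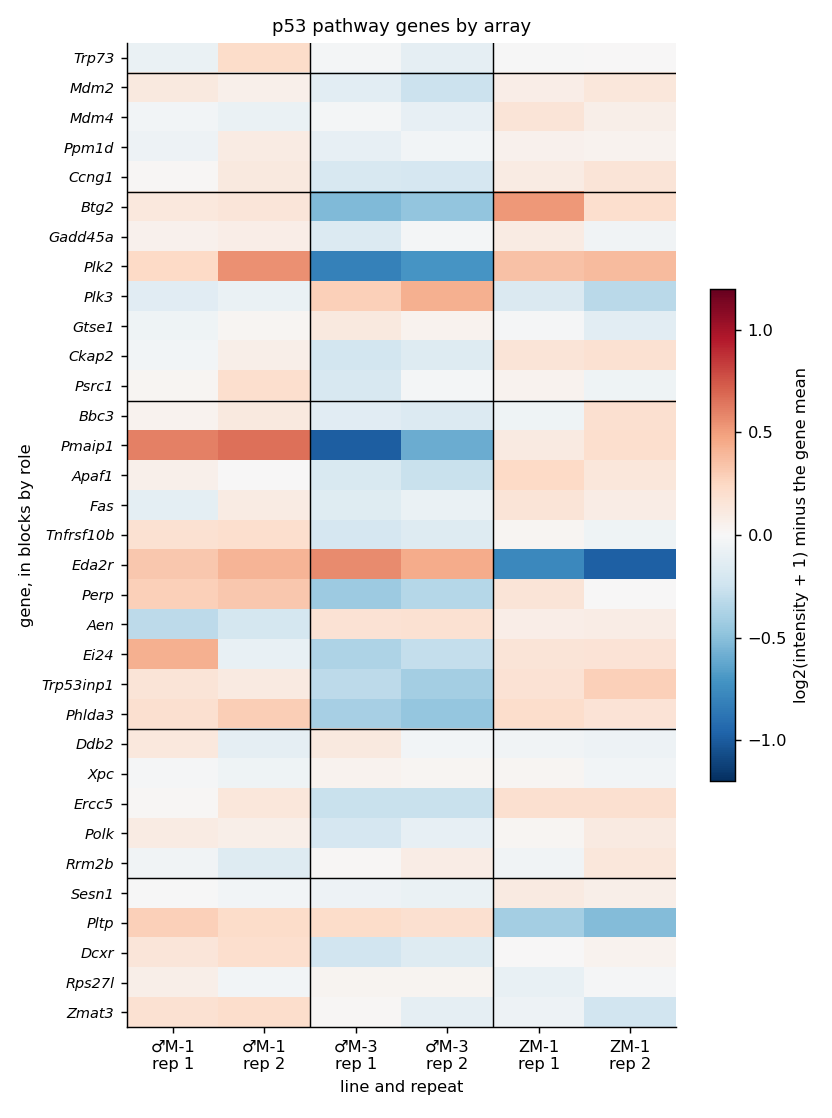
Values of the 33 measured p53 pathway genes (rows, in blocks by role) in the 6 arrays (columns), as log2(intensity + 1) minus the mean of the gene over the arrays, with red above and blue below that mean. The ♂M-3 columns are blue for 17 genes that were lowest in both ♂M-3 arrays, such as Plk2 and Pmaip1, while Eda2r and Pltp are blue in the ZM-1 columns.

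p53 binds pairs of a decamer half-site, and the RefSeq promoter windows of GRCm38.p6, 250 bases before to 50 bases after a start site, show which genes carry such letters close to their start. A half-site without a mismatch, or a paired site, was searched on both strands; the half-site reads the same on both. A paired site here was 2 decamers 0 to 13 bases apart with both cores kept and at most 3 mismatches in 20 bases, so it can overlap a perfect half-site. Windows were found for 25 of the 33 genes. A half-site stood in 11 of these genes and a paired site in 8. Of their 35 windows 34.3% held a half-site and 25.7% a paired site, against 8.36% and 6.72% of all 32851 windows. Windows of 1 gene can overlap and hold the same site, as the 2 windows of Aen do. By gene, 2582 of all 27025 genes with a window had a half-site and 2061 a paired site. The 33 genes were listed as regulators or known targets of p53, so their share is not an independent result. Among the genes called in at least 1 comparison, 6 of 14 with a window held either kind, and among those called in none, 8 of 11.

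The 6 called genes with a match are shown by the stretch around it, with 30 bases on each side (after the match of Aen 20, where its window ends), in transcript direction and with the matching decamers in capitals. Mdm2, Ccng1, Ckap2 and Ei24 were lower in ♂M-3 than ZM-1, Aen was lower in ♂M-1, and Pltp was higher in both ♂M lines.
Mdm2 (chr10:117710905-117710974, minus strand): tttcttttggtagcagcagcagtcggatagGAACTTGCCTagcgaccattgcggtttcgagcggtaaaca
Ccng1 (chr11:40755432-40755501, minus strand): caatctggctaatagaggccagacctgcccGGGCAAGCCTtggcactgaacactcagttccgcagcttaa
Ckap2 (chr8:22185968-22186052, minus strand): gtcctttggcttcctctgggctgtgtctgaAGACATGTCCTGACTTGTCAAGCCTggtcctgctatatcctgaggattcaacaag
Ei24 (chr9:36797305-36797374, minus strand): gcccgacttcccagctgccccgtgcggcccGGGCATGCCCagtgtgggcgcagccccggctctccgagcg
Aen (chr7:78895907-78895976, plus strand): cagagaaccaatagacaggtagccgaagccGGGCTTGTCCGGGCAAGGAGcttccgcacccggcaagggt
Pltp (chr2:164857759-164857849, minus strand): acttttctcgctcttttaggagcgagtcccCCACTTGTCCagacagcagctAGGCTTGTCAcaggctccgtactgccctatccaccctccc
In Mdm2, Ccng1 and Ei24 the capitals mark 1 half-site. In Ckap2 they mark overlapping paired sites, in Aen a paired site without a gap, and in Pltp a paired site with no perfect half-site.

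The whole windows of Eda2r and Plk2 are given because these genes had the smallest adjusted p among called genes whose window held no match. Their windows therefore have no capitals.
Eda2r (chrX:97377160-97377459, minus strand): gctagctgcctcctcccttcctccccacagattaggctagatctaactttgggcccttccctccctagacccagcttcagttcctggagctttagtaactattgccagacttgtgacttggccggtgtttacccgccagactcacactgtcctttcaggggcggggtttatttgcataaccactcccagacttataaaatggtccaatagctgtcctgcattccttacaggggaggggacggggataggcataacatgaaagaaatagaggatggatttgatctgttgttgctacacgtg
Plk2 (chr13:110394794-110395093, plus strand): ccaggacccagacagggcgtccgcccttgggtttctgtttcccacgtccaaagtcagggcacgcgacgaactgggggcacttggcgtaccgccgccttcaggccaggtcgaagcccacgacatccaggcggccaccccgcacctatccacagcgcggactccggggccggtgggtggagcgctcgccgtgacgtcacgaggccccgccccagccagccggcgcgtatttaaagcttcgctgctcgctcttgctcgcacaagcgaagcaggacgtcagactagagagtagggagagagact
These windows cover a small part of the regulatory sequence of a gene, and a match is a description of the letters.

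The inhibitors of p53 gave calls in 1 comparison. Of Mdm2, Mdm4, Ppm1d and Ccng1, 2 were lower in ♂M-3 than ZM-1, and 0 of the 4 were called in either other comparison (limma, lowest adjusted p = 0.0780). At an unadjusted p under 0.05, limma gave 2 of the 4 between the ♂M lines and 0 in ♂M-1 against ZM-1. Mdm2, the ligase that marks p53 for destruction and is itself a p53 target, measured 1077 and 1114 in the ZM-1 pair, 1099 and 1057 in the ♂M-1 pair and 928 and 849 in the ♂M-3 pair. Both ♂M-3 arrays were below the 4 others, which overlapped. In ♂M-3 its log2 difference from ZM-1 was −0.30 (95% interval −0.48 to −0.12, adjusted p = 0.0331), and this call ended when any of the 6 arrays was left out (adjusted p between 0.0517 and 0.209).

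Ccng1, the cyclin G1 gene, a p53 target whose product works with a phosphatase on Mdm2, measured 3047 and 3179.8 in the ZM-1 pair, 2883 and 3084 in the ♂M-1 pair and 2494 and 2484 in the ♂M-3 pair. It was again lowest in both ♂M-3 arrays, by −0.32 against ZM-1 (adjusted p = 0.0220), a call that ended without ♂M-3 replicate 1 (0.103), ♂M-3 replicate 2 (0.115) or ZM-1 replicate 2 (0.0877). Mdm4, the partner of Mdm2 that masks the activation domain of p53, ranged from 817 to 976 and was highest in the 2 ZM-1 arrays. Ppm1d, the phosphatase that ends the damage signal, ranged from 767 to 882. Its ♂M-1 arrays overlapped both other lines, and both ♂M-3 arrays lay below those of ZM-1. Trp73, the p53 relative, ranged from 85.1 to 107 with the same arrangement of the lines.

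Genes of cell cycle and growth arrest held the largest decrease in ♂M-3 against ZM-1. Among 7 measured genes, 3 were lower and 1 higher in ♂M-3 than ZM-1, and 2 were higher and 1 lower in ♂M-1 than ♂M-3. Between ♂M-1 and ZM-1, limma called 0 of the 7, and 0 had an unadjusted p under 0.05. Plk2, a polo-like kinase induced by stress, measured 445 and 454 in the ZM-1 pair, 412 and 511 in the ♂M-1 pair and 198 and 214 in the ♂M-3 pair. The ♂M-3 arrays were far below the others, and the ♂M-1 repeats enclosed the ZM-1 values. Its level in ♂M-3 was 2.18-fold below that in ZM-1 (log2 difference −1.12, 95% interval −1.36 to −0.88, adjusted p = 2.34e-04), and in ♂M-1 2.22-fold above that in ♂M-3 (adjusted p = 4.79e-04).

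Btg2, an antiproliferative gene that slows entry into S phase, gave 266 and 213 in the ZM-1 pair, 202 and 204 in the ♂M-1 pair and 128 and 133 in the ♂M-3 pair. All 3 lines were separate, with ♂M-3 lowest and ZM-1 highest, although the ♂M-1 and ZM-1 levels did not pass the test (log2 difference −0.23, adjusted p = 0.270). In ♂M-3 it was 1.82-fold lower than in ZM-1 (adjusted p = 9.58e-04). It was 1.55-fold higher in ♂M-1 than ♂M-3 (adjusted p = 0.00847), a call that ended without either array of either ♂M line (adjusted p between 0.0520 and 0.0880).

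Plk3, another polo-like kinase, went the other way. Its intensity was 280.1 and 252 in the ZM-1 pair, 287 and 299.8 in the ♂M-1 pair and 385 and 424 in the ♂M-3 pair, so that the ♂M-3 arrays were highest. It was 1.52-fold higher in ♂M-3 than ZM-1 (adjusted p = 0.00238). In ♂M-1 it was lower than in ♂M-3 by a log2 difference of −0.46 (adjusted p = 0.0161), a call that ended without ♂M-1 replicate 1 (0.0942) or 2 (0.0974) and without ♂M-3 replicate 2 (0.132). Plk2 and Plk3, both polo-like kinases that p53 is known to induce, therefore differed in opposite directions in ♂M-3.

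Ckap2, a spindle protein of mitosis, measured 717 and 727 in the ZM-1 pair, 626 and 676 in the ♂M-1 pair and 552 and 577 in the ♂M-3 pair. The lines did not overlap, and ♂M-3 differed from ZM-1 by −0.36 (adjusted p = 0.0158), a call that ended without ♂M-3 replicate 1 (0.104), ♂M-3 replicate 2 (0.0656) or ZM-1 replicate 2 (0.0577). The 3 remaining genes of this role were called in no comparison. Gadd45a, a stress sensor that inhibits the mitotic kinase Cdk1, ranged from 227 to 272, Gtse1, a G2 and S phase protein that dampens p53, from 571 to 677, and the spindle protein Psrc1 from 1064 to 1392. Gtse1 was highest in both ♂M-3 arrays. For Gadd45a and Psrc1 the ZM-1 arrays overlapped both ♂M lines, and the ♂M-1 arrays lay above those of ♂M-3.

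**Figure D2:**
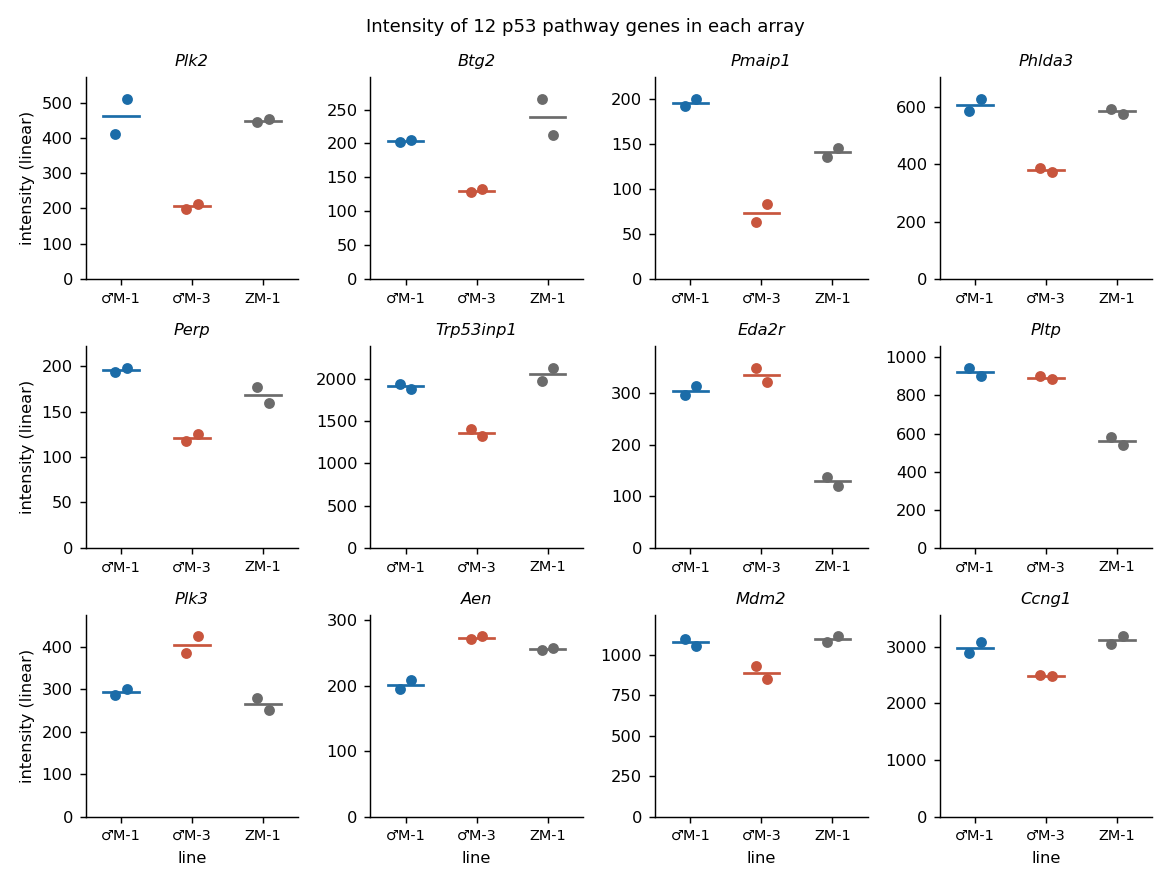
Linear intensity of 12 p53 pathway genes in each array, with points for the 2 repeats of a line, a bar for their mean and every axis starting at 0. Plk2, Btg2, Pmaip1, Phlda3, Perp, Trp53inp1, Mdm2 and Ccng1 are lowest in ♂M-3, Plk3 is highest there, Eda2r and Pltp are lowest in ZM-1, and Aen is lowest in ♂M-1.

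The apoptosis genes had the most calls and were also the largest role, with 11 of the 33 genes. In ♂M-3 against ZM-1, 3 of 7 cell cycle genes were lower and 1 higher, and 2 of 4 inhibitors were lower. Over all genes, 7.20% were lower and 8.66% higher there. Of 11 measured genes, 6 were lower and 1 higher in ♂M-3 than ZM-1, with a median log2 difference of −0.41, and 5 were higher and 1 lower in ♂M-1 than ♂M-3, with a median of 0.37. Against ZM-1, ♂M-1 had 1 gene higher and 1 lower, with a median of 0.01. Pmaip1, which encodes the BH3-only protein Noxa, measured 136 and 146 in the ZM-1 pair, 192 and 201 in the ♂M-1 pair and 63.3 and 83.3 in the ♂M-3 pair. The lines were separate, with ♂M-1 highest and ♂M-3 lowest. It was 1.93-fold lower in ♂M-3 than ZM-1 (95% interval of the log2 difference −1.22 to −0.68, adjusted p = 0.00121) and 2.68-fold higher in ♂M-1 than ♂M-3 (adjusted p = 3.24e-04), the largest difference of any of the 33 genes in that comparison.

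Between ♂M-1 and ZM-1, Pmaip1 differed by 0.48 (limma adjusted p = 0.0617), which did not pass. It did pass after median centring (0.0473), with a pseudocount of 16 (0.0407) and under 4 other fits (adjusted p between 0.0215 and 0.0438). Among these 4, 1 used only the arrays of the 2 lines, and leaving out a ♂M-3 array repeats that fit. Bbc3, the gene of the other BH3-only target Puma, measured 137 and 163 in the ZM-1 pair, 147 and 154 in the ♂M-1 pair and 129 and 126 in the ♂M-3 pair. Its ♂M-3 arrays were lowest, with a difference from ZM-1 of −0.22 (95% interval −0.432 to −0.00489, limma adjusted p = 0.158). The direction of Bbc3 was thus the same as that of Pmaip1, but Bbc3 was not called.

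Phlda3, a pleckstrin domain protein that competes with Akt for the membrane, measured 595 and 575 in the ZM-1 pair, 588 and 629 in the ♂M-1 pair and 389 and 373 in the ♂M-3 pair. The ♂M-1 and ZM-1 arrays overlapped and both ♂M-3 arrays were far below. It was 1.53-fold lower in ♂M-3 than ZM-1 (adjusted p = 0.00116) and 1.59-fold higher in ♂M-1 than ♂M-3 (adjusted p = 0.00144). Perp, a membrane protein of desmosomes and apoptosis, gave 177 and 159 in the ZM-1 pair, 194 and 199 in the ♂M-1 pair and 117 and 125 in the ♂M-3 pair. It was 1.38-fold lower in ♂M-3 than ZM-1 (adjusted p = 0.00635), a call that ended without ♂M-3 replicate 1 (0.0555), and 1.62-fold higher in ♂M-1 than ♂M-3 (adjusted p = 0.00185).

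Trp53inp1, a nuclear protein that promotes p53 phosphorylation and autophagy, measured 1979 and 2137 in the ZM-1 pair, 1946 and 1886 in the ♂M-1 pair and 1409 and 1325 in the ♂M-3 pair. The lines were separate, with ♂M-3 lowest. It was 1.51-fold lower in ♂M-3 than ZM-1 (adjusted p = 0.00168) and higher in ♂M-1 than ♂M-3 by a log2 difference of 0.49 (adjusted p = 0.00804), the latter lost without ♂M-1 replicate 1 (0.0545) or 2 (0.0631) or ♂M-3 replicate 2 (0.0779). Apaf1, the scaffold of the apoptosome, measured 489.6 and 455 in the ZM-1 pair, 432 and 416 in the ♂M-1 pair and 364 and 344 in the ♂M-3 pair, again without overlap. Its ♂M-3 level was 1.33-fold below ZM-1 (adjusted p = 0.00880), a call that ended without ♂M-3 replicate 2 (0.0739).

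Ei24, an endoplasmic reticulum protein first found as a p53-induced gene, had the widest repeats of the 33 genes, at 977 and 684 in ♂M-1 against 564 and 598 in ♂M-3 and 809 and 815 in ZM-1. It lay just past the threshold in ♂M-3 against ZM-1 (log2 difference −0.48, adjusted p = 0.0498). The call ended without any 1 of the 4 arrays compared, where the log2 difference lay between −0.52 and −0.44. It also ended after median centring (0.0634), with the replicate block (0.0554), with the mean of a gene's probe sets (0.0501) and with all probe sets (0.154). Ei24 passed more clearly with only the arrays of these 2 lines (0.00871) and with a variance trend (0.00828). Of the death receptor genes, Tnfrsf10b, a TRAIL receptor, measured 669 and 639 in the ZM-1 pair, 751 and 759 in the ♂M-1 pair and 573 and 593 in the ♂M-3 pair, with separate lines. It was 1.29-fold higher in ♂M-1 than ♂M-3 (adjusted p = 0.0199), a call that ended when any of the 4 ♂M arrays was left out (adjusted p between 0.0807 and 0.139). Fas, the receptor of Fas ligand, ranged from 31.3 to 38.9, near the lower quartile of the arrays, with no call.

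Eda2r, a receptor of the TNF receptor family for ectodysplasin A2 and a p53 target, showed a different pattern from the other apoptosis genes. Its intensity was 138 and 119 in the ZM-1 pair, 296 and 314 in the ♂M-1 pair and 349.9 and 322 in the ♂M-3 pair. Both ♂M lines were above ZM-1 without overlap, by 2.36-fold in ♂M-1 (95% interval of the log2 difference 1.03 to 1.45, adjusted p = 1.85e-04) and 2.60-fold in ♂M-3 (1.17 to 1.59, adjusted p = 4.54e-05). The ♂M lines differed from each other by −0.14 (95% interval −0.35 to 0.07). Aen, an apoptosis-enhancing nuclease, was lowest in ♂M-1, with 194 and 208 there, 272 and 275 in ♂M-3 and 254 and 257 in ZM-1. The lines were separate. In ♂M-1 it was 1.27-fold lower than in ZM-1 (adjusted p = 0.0382), a call that ended when any of the 6 arrays was left out (adjusted p between 0.0722 and 0.184), and 1.36-fold lower than in ♂M-3 (adjusted p = 0.0103), lost without ♂M-1 replicate 1 (0.0675) or ♂M-3 replicate 1 (0.0708) or 2 (0.0811).

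Among the 5 genes of DNA repair and nucleotide supply, 1 was called. Ercc5, the endonuclease XPG that cuts on the 3′ side of damage in nucleotide excision repair, measured 358 and 357 in the ZM-1 pair, 315 and 342 in the ♂M-1 pair and 259.5 and 259 in the ♂M-3 pair. The lines were separate and the repeats of ♂M-3 and ZM-1 nearly equal. It was 1.38-fold lower in ♂M-3 than ZM-1 (adjusted p = 0.00474) and 1.27-fold higher in ♂M-1 than ♂M-3 (adjusted p = 0.0332), the latter ending when any of the 4 ♂M arrays was left out (adjusted p between 0.0614 and 0.223).

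The damage recognition genes of the same repair pathway gave no call. Ddb2, which binds ultraviolet lesions, ranged from 99.0 to 116, and Xpc, which recognises distorted DNA, from 158 to 169. For Xpc the 95% interval of the difference between ♂M-3 and ZM-1 was −0.13 to 0.20. Polk, a translesion polymerase, ranged from 250.4 to 311 and was lowest in both ♂M-3 arrays, with a difference from ZM-1 of −0.22 (adjusted p = 0.0992). Rrm2b, the p53-inducible subunit of ribonucleotide reductase, ranged from 103 to 127.

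In the last role, of metabolic, secreted and other targets, 1 of 5 genes was called in each comparison. Pltp, the phospholipid transfer protein of plasma lipoproteins, measured 584 and 540.3 in the ZM-1 pair, 946 and 904 in the ♂M-1 pair and 903 and 884 in the ♂M-3 pair. Like Eda2r, it was high in both ♂M lines and low in ZM-1 without overlap. It was 1.65-fold higher in ♂M-1 (adjusted p = 0.00145) and 1.59-fold higher in ♂M-3 (adjusted p = 7.71e-04) than in ZM-1. These 2 comparisons share the ZM-1 arrays. The ♂M lines differed by 0.05 (95% interval −0.13 to 0.23).

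Dcxr, a reductase of dicarbonyls and xylulose, measured 205 and 211 in the ZM-1 pair, 226 and 235 in the ♂M-1 pair and 174 and 183 in the ♂M-3 pair, with separate lines. It was 1.29-fold higher in ♂M-1 than ♂M-3 (adjusted p = 0.0225), a call that ended when any of the 4 ♂M arrays was left out (adjusted p between 0.0733 and 0.158). Zmat3, an RNA-binding zinc finger protein, was highest in ♂M-1 at 479.6 and 491, against 426 and 391 in ♂M-3 and 406 and 359.9 in ZM-1. It differed between ♂M-1 and ZM-1 by 0.34 (adjusted p = 0.0644), which did not pass, but did after median centring (0.0446) and with a pseudocount of 16 (0.0381), among genes above the 25th percentile (0.0433) and with a variance trend (0.0136). Sesn1, a sestrin that restrains mTORC1, ranged from 226 to 256, and Rps27l, a ribosomal protein paralogue, from 1999.5 to 2225, neither with a call.

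**Figure D3:**
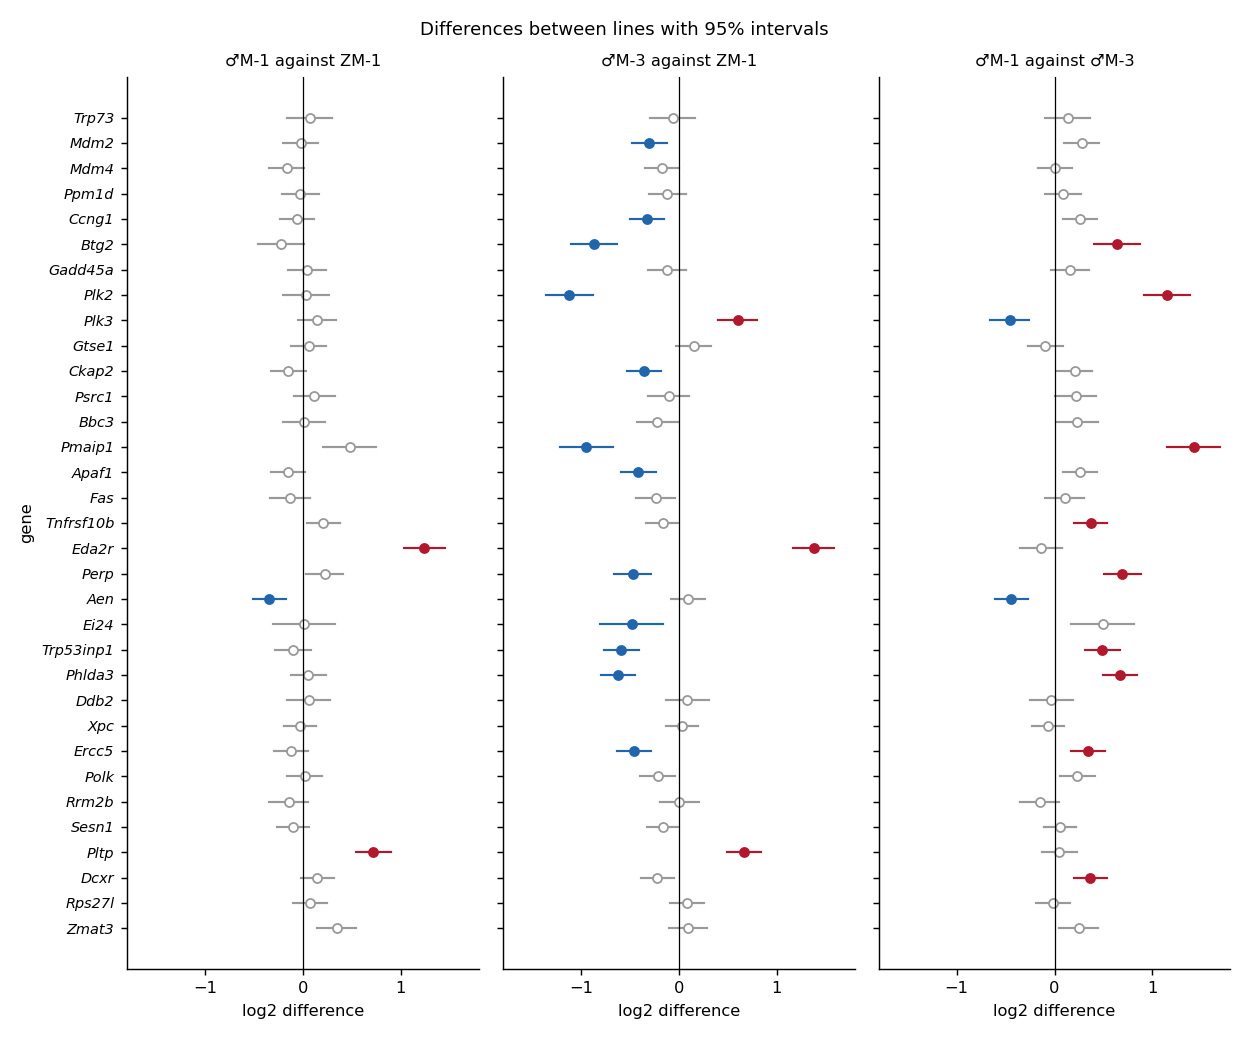
Log2 differences of the 33 genes in the 3 comparisons, with 95% intervals from limma's fit and positive values where the first-named line was higher. Filled points, red or blue by direction, passed the adjusted threshold: 15 of the 33 for ♂M-3 and 3 for ♂M-1, each set against ZM-1, and 11 between the ♂M lines.

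Other genes of the pathway, listed by role, were examined in the same fit. These lists too were chosen with earlier results of these data known. For every list below, the shares over all genes in ♂M-3 against ZM-1 were 8.66% higher and 7.20% lower. They were 1.89% and 2.53% in ♂M-1 against ZM-1, and 3.22% and 3.32% in ♂M-1 against ♂M-3. The calls of the damage signalling and regulator lists lay near these shares. Genes that signal damage to p53 had 0 of 13 called in ♂M-1 against ZM-1, 2 higher and 1 lower in ♂M-3 against ZM-1, and 0 between the ♂M lines. At an unadjusted p under 0.05, limma gave 3 of them in ♂M-1 against ZM-1 and 4 between the ♂M lines. In ♂M-3, Rad50, a subunit of the break-sensing MRN complex, was lower than in ZM-1, at 502 ± 29.5 (SD, n = 2) against 769 ± 64.2 (limma adjusted p = 0.00503). Nbn, its partner in that complex, was higher at 350.1 ± 13.1 (SD, n = 2) against 268 ± 11.3 (limma adjusted p = 0.0109). Hipk2, a kinase that phosphorylates p53, was 1.24-fold higher. The 2 higher genes became 1 without ♂M-3 replicate 1 and 0 when replicate 2 of either line was left out.

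Regulators of the p53 protein had 1 of 23 called in ♂M-3 against ZM-1, 0 in ♂M-1 against ZM-1 (limma, 1 at an unadjusted p under 0.05) and 1 between the ♂M lines. In both cases it was Ppp1r13l, which encodes the inhibitor iASPP, at 225 ± 13.1 (SD, n = 2) in ♂M-3, 165 ± 12.4 in ZM-1 and 172 ± 1.59 in ♂M-1 (limma adjusted p = 0.00933 against ZM-1 and 0.0314 against ♂M-1). The call against ZM-1 ended without ♂M-3 replicate 2, and that between the ♂M lines ended when any of their 4 arrays was left out. In the core of mitochondrial apoptosis, 2 of 9 genes were higher in ♂M-3 than ZM-1 and 1 in ♂M-1. Casp9, the initiator caspase that Apaf1 activates, was 1.45-fold higher in ♂M-3 and 1.31-fold higher in ♂M-1 than ZM-1, and Bak1, a pore-forming partner of Bax, was 1.41-fold higher in ♂M-3. The call of Casp9 in ♂M-1 ended when any of the 4 arrays of ♂M-1 and ZM-1 was left out. Between the ♂M lines limma called 0 of the 9, with 3 at an unadjusted p under 0.05.

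Among further p53 targets, more were lower than higher in ♂M-3 against ZM-1. Of 27 measured, 7 were lower and 1 higher in ♂M-3 than ZM-1, with a median log2 difference of −0.14, and 9 were higher and 2 lower in ♂M-1 than ♂M-3, with a median of 0.07. Against ZM-1, ♂M-1 had 3 higher and 0 lower, with a median of 0.03. The 7 lower genes became 4 without ♂M-3 replicate 1 and 3 without ♂M-3 replicate 2. The 9 genes higher in ♂M-1 than ♂M-3 became 5 without ♂M-1 replicate 2 or ♂M-3 replicate 2, and 6 without ♂M-3 replicate 1, and the 2 lower there became 0 when any of these 4 arrays was left out. The 3 genes higher in ♂M-1 than ZM-1 became 1 without ♂M-1 replicate 2. The 1 higher in ♂M-3 than ZM-1 became 0 without either ♂M-3 array or ZM-1 replicate 2, and 2 without any other array. Ephx1, the microsomal epoxide hydrolase, measured 414 ± 7.32 (SD, n = 2) in ZM-1, 557 ± 22.1 in ♂M-1 and 278 ± 6.76 in ♂M-3 (limma adjusted p = 1.75e-04 between the ♂M lines). Sfn, the cell cycle inhibitor 14-3-3σ, measured 666 ± 9.83 (SD, n = 2), 1152 ± 63.0 and 575 ± 16.5 in the same order. Thbs1, the matrix protein thrombospondin 1, which fibroblasts also make, measured 2601 ± 219 (SD, n = 2), 3893 ± 97.3 and 2097 ± 90.5, and was called in all 3 comparisons. Tap1, the peptide transporter of antigen presentation and also an interferon target, was 1.85-fold lower in ♂M-3 than ZM-1 (limma adjusted p = 3.03e-04).

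Cell cycle genes that are repressed downstream of p53 and p21 gave a single call, near the share over all genes given above. Of 11 measured, 1 was lower in ♂M-3 than ZM-1, namely Cdk1, the mitotic kinase, at 2110 ± 146 (SD, n = 2) against 2677 ± 70.7 (limma adjusted p = 0.0217). The call ended without ♂M-3 replicate 2 or either ZM-1 array. In the other comparisons limma called 0 of the 11, with 4 at an unadjusted p under 0.05 in ♂M-1 against ZM-1 and 3 between the ♂M lines. The list had a median of 0.04 for ♂M-3 and −0.06 for ♂M-1, each set against ZM-1, and of −0.04 between the ♂M lines.

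Markers of other cell types were called in the same comparisons as the p53 genes. Of 20 measured fibroblast markers, 12 were lower and 1 higher in ♂M-3 than ZM-1, with a median of −0.45, and 11 were higher and 0 lower in ♂M-1 than ♂M-3, with a median of 0.43. The 12 became 8 without ♂M-3 replicate 2, and the 11 became 7 without ♂M-1 replicate 2 or ♂M-3 replicate 1 and 6 without ♂M-3 replicate 2. The 1 higher in ♂M-3 became 0 without either ♂M-3 array. In ♂M-1 against ZM-1, 2 were higher and 3 lower, and these became 0 and 1 without ♂M-1 replicate 2 or ZM-1 replicate 1, and 0 and 3 without ZM-1 replicate 2. Their summed intensity was 17938 and 17805 in the ZM-1 pair, 18626 and 19251 in the ♂M-1 pair and 16698 and 16406 in the ♂M-3 pair. The largest parts of each sum were Fn1 (5097 to 5718), Vim (4905 to 5487) and Acta2 (2705 to 4133). Vim and Fn1 had means of 5318 and 5494 in ♂M-3 against 5069 and 5125 in ZM-1. Acta2 had a mean of 3869 in ♂M-1 against 2807 in ZM-1, while Dcn had 214 against 571. In each array 2 of the 20 lay below the lower quartile and 16 or 17 above the median. Lum and Fap, both fibroblast genes, were the low pair at 11.7 to 17.6, while Col1a1, a defining fibroblast collagen, ranged from 512 to 908 and Dcn from 96.5 to 596. The part of such cells in the p53 results was not tested.

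Blood and immune markers had 6 of 10 lower in ♂M-3 and 3 lower in ♂M-1 than ZM-1, and 0 called between the ♂M lines (limma, 1 at an unadjusted p under 0.05). The 6 became 4 without any 1 of 3 arrays, namely both ♂M-1 arrays and ♂M-3 replicate 1, and 3 without ♂M-3 replicate 2, and the 3 lower in ♂M-1 became 1 without ♂M-1 replicate 1. Their summed intensity was 1002 and 932 in the ZM-1 pair, 803 and 839 in the ♂M-1 pair and 777 and 796 in the ♂M-3 pair. The largest part of each sum was Cd68, at 338 to 382. Of the 10, only 2 or 3 lay above the median in each ♂M array and 4 or 5 in each ZM-1 array. Several, among them Ptprc (28.4 to 38.1) and Csf1r (28.1 to 35.4), lay near the lower quartile. Of 9 primitive endoderm markers, 2 were lower and 1 higher in ♂M-3 than ZM-1, limma called 0 in ♂M-1 against ZM-1 (2 at an unadjusted p under 0.05), and 2 were higher and 1 lower in ♂M-1 than ♂M-3. The 2 lower in ♂M-3 became 0 without ♂M-3 replicate 2, and 1 with ZM-1 replicate 2 or ♂M-3 replicate 1 left out. The 2 higher in ♂M-1 became 0 without ♂M-1 replicate 2 or ♂M-3 replicate 1, and 1 without the other repeat of either line. Pluripotency markers had 4 of 12 higher in ♂M-3 and 1 higher in ♂M-1 than ZM-1, with 2 lower in ♂M-1 than ♂M-3. The 4 became 1 without either array of ♂M-3 or of ZM-1, the 1 became 0 without any of the 6 arrays, and the 2 became 1 without ♂M-1 replicate 2. Pdgfra stands in both the fibroblast and the primitive endoderm list.

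**Figure D4:**
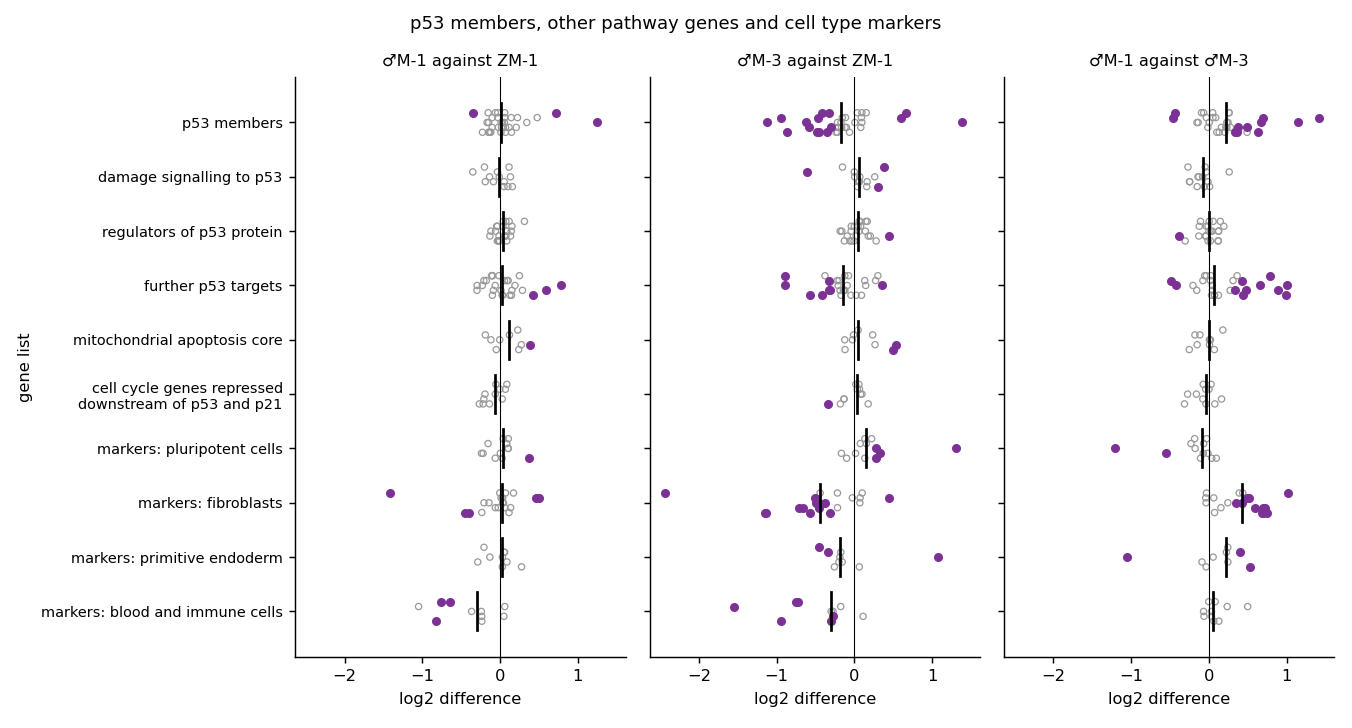
Log2 differences of the 33 p53 genes, 5 lists of other pathway genes and 4 lists of cell type markers in the 3 comparisons, with 1 point a gene, filled where it passed the adjusted threshold, and a black bar at the median of each list. In ♂M-3 against ZM-1 the medians lie at −0.17 for the p53 genes, −0.14 for further p53 targets and −0.45 for fibroblast markers.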

How the data were processed

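Intensities on a linear scale were deposited for each probe set, 1 for each of 6 arrays, and per the submitters' processing notes GCOS version 1.4 was used by the authors. How background, summarisation and scaling between arrays were done is not given in the sources used here. The distributions of the arrays were nearly equal, so the deposited values were used without further scaling.

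Of 35556 probe sets, 21789 carried 1 gene symbol in the array's annotation, 1621 several and 12146 none. For a gene, the probe set with the highest mean intensity was kept, giving 19938 genes. Values were taken as log2(intensity + 1). A mean per line was fitted over the 6 arrays with limma 3.58.1 in R 4.3.3 (residual degrees of freedom 3, prior 6.01), followed by its moderated two-sided test and Benjamini-Hochberg adjustment over all 19938 genes, with a threshold of 0.05. The scripts were tested on simulated data. P-values in the text are from this fit unless an alternative or a left-out array is named beside them.

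The genes and lists were chosen with earlier results of these data known. Genes past the threshold are named with every array, the other listed genes by their range, and up to 4 called genes of each further list. The alternatives were a pseudocount of 16, quantile normalization, median centring, a filter at the 25th percentile, the mean of a gene's probe sets, all probe sets, only the arrays compared, a variance trend, the replicate block and leaving out each array.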

Additional observations from a re-analysis of the deposited data

How the results depend on the processing

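Of 29 called differences of single genes, 0 changed direction under any alternative. Many alternatives could not change it. The percentile filter, the mean of a gene's probe sets, all probe sets and only the arrays compared left each difference as it was. So did the variance trend, the replicate block and leaving out an array of the line not compared. Under the alternatives other than a left-out array, 242 of 261 values stayed past the threshold. For the 33 genes, each with 1 probe set, the mean of a gene's probe sets left the values unchanged. Leaving out an array of the line not compared repeated the fit with only the arrays of the 2 lines. A left-out array of the compared lines ended part of the calls, as named gene by gene above. Counts of the 33 genes moved more. Genes higher in ♂M-1 than ZM-1 rose from 2 to 4 with a pseudocount of 16, with median centring, among genes above the 25th percentile and with the variance trend, Pmaip1 and Zmat3 being added. The 1 gene lower there became 0 with all probe sets, with only the arrays of the 2 lines, with the replicate block and in every fit that left out an array. With all probe sets, which tests 35556 features, genes higher in ♂M-1 than ♂M-3 fell from 9 to 4 and genes lower from 2 to 0. Over all alternatives other than a left-out array, genes higher in ♂M-1 than ♂M-3 ranged from 4 to 13. Those lower in ♂M-3 than ZM-1 ranged from 8 to 14. The variance trend added Mdm2, Ccng1, Apaf1 and Ei24 as higher in ♂M-1 than ♂M-3. Leaving out 1 array gave 7 to 11 genes lower in ♂M-3 than ZM-1, 4 to 9 higher in ♂M-1 than ♂M-3 and 0 to 2 lower there.

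Over all genes, the 880 calls of ♂M-1 against ZM-1 became 275 with all probe sets, 1632 with the trend, and 234 to 631 without an array. The 3162 calls of ♂M-3 against ZM-1 became 2027 with all probe sets and 1302 to 2750 without an array, and the 1303 calls between the ♂M lines 442 and 357 to 1495. Median centring moved the higher share of calls in ♂M-1 against ZM-1 from 42.7% to 56.5%. The labels pair no same-numbered repeats, and their deviations correlated by −0.03, 0.07 and −0.10 over genes. With the replicate block, the genes lower in ♂M-3 than ZM-1 numbered 11 and those higher in ♂M-1 than ♂M-3 numbered 8. The block ended the calls of Aen in ♂M-1 against ZM-1 (0.0586), Ei24 in ♂M-3 against ZM-1 (0.0554) and Ercc5 between the ♂M lines (0.0526), and added Pmaip1 in ♂M-1 against ZM-1 (0.0438). For the other lists, 686 of 810 counts under an alternative stayed within 1.5 times the reported count; the 7 further p53 targets lower in ♂M-3 than ZM-1 ranged from 3 to 8, and the 12 fibroblast markers from 8 to 13.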
